A study of Mus musculus with 48 samples.

Results

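The genes described here are 52 genes of DNA replication and S phase: the subunits of the replication fork, the enzymes that supply its nucleotides and chromatin, and the regulators that commit a cell to copy its genome. They were listed by gene symbol, with no threshold on a measured value but with earlier results of these data known, and all 52 were found among the 53345 genes of the deposited matrices. By role they comprise 11 genes of origin licensing, 6 of helicase activation, 6 of the sliding clamp and its loader, 6 of the polymerases and primase, 4 of strand joining and single-strand binding, 5 of nucleotide supply, 4 of chromatin assembly and histone mRNA, 5 of checkpoint and repair, and 5 regulators of the G1/S transition. They were measured by poly(A) RNA-seq in Tregs and CD25- conventional T cells (Tcons) isolated from spleens of female C57BL/6 mice aged 8 to 12 weeks, with no genetic modification named in the labels. Every mouse received either an isotype control antibody or an antibody that blocks MHC class II (500 µg per injection, given on the day before and on the day of IL-2 dosing), together with PBS or 25 µg of an Fc-fused human IL-2, and spleens were taken on day 4. The IL-2 molecules were WT IL-2, the mutein H16R, and 3x, a mutein with 3 substitutions. Both muteins signal more weakly than WT IL-2. The comparison of the arms addresses how much of the response to each IL-2 molecule depends on the T cell receptor signal that MHC class II delivers to CD4+ T cells. There were 8 Treg groups of 4 mice and 8 Tcon groups of 2, and the Tcons came from mice whose Tregs were also sequenced. Tregs were the CD25 bead-bound fraction and Tcons the CD25- flow-through, so neither was a flow-sorted population, and the Tcon groups of 2 give little information on the spread between mice.

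Before S phase, the origin recognition complex together with Cdc6 and Cdt1 loads the ring-shaped MCM helicase onto DNA, a step called licensing. Cyclin E kinase and E2F transcription factors then drive the entry into S phase, Cdc45 and the GINS complex switch the helicase on, primase and the polymerases copy the strands with the help of the Pcna clamp, and ribonucleotide reductase supplies the building blocks. Most of these genes are E2F targets and are transcribed at the G1/S boundary, whereas mitotic genes are transcribed later, in G2 and M phase. Tregs express the high-affinity IL-2 receptor constitutively, and IL-2 is a growth factor for T cells.

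Because E2F factors and the CCAAT-binding factor NF-Y are the classical activators of these genes, the promoters (250 bases before the transcription start and 50 from it on; RefSeq, GRCm38.p6) were searched on both strands for the E2F motifs TTTCCCGC, TTTGGCGC, TTTGCCGC and TTTCGCGC and for CCAAT. A promoter was listed for 43 of the 52 genes, as 48 promoters in all. Gmnn, Mcm4, Gins1, Gins2, Gins4, Rfc2, Pole, Tipin and Ccne2 had no entry. An E2F motif was present in 16 of the 48 promoters (33.3%), against 2.26% of all 32851 promoters of the same length, and CCAAT in 28 of the 48 (58.3%), against 37.4%. A match of letters is not a bound site, and the motifs TTTGGCGC and TTTCGCGC can overlap on opposite strands, as they do in Mcm5 and Mcm6. Printed here are the 300-base promoters of Mcm5, Mcm6, Cdc6 and Clspn, which hold E2F motifs and whose transcripts moved differently in the Tregs, and of Rpa1, which holds CCAAT but no E2F motif and was 1 of 3 members, with E2f2 and Rrm2, that rose with every IL-2 molecule in the isotype arm. Capitals mark the E2F and CCAAT motifs on either strand, and each sequence runs 5′ to 3′ on the strand of its gene.
Mcm5, chr8:75109259-75109558, plus strand: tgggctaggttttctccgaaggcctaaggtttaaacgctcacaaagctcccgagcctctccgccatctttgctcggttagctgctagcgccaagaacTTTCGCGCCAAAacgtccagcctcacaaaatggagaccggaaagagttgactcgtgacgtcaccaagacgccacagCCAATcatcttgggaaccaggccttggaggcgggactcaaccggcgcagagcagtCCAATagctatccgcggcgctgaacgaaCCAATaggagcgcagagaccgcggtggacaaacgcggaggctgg
Mcm6, chr1:128359656-128359955, minus strand: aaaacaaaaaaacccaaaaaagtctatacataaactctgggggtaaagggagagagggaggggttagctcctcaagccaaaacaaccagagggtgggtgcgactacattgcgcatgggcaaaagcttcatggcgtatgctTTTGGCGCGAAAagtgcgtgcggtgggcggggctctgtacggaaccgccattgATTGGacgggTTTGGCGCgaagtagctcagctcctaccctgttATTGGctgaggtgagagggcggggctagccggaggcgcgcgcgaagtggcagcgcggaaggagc
Cdc6, chr11:98907901-98908200, plus strand: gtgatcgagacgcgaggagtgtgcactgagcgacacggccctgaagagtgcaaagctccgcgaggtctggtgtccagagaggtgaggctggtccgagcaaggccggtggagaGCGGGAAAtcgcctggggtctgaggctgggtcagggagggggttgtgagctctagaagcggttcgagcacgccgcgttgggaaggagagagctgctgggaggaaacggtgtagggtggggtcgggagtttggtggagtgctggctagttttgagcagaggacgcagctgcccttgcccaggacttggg
Clspn, chr4:126556730-126557029, plus strand: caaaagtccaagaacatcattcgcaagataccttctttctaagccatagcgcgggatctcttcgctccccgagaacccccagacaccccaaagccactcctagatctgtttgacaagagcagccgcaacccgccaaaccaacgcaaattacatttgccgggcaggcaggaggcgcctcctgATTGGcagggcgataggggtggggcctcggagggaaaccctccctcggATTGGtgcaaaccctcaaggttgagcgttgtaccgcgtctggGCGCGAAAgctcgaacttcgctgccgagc
Rpa1, chr11:75348334-75348633, minus strand: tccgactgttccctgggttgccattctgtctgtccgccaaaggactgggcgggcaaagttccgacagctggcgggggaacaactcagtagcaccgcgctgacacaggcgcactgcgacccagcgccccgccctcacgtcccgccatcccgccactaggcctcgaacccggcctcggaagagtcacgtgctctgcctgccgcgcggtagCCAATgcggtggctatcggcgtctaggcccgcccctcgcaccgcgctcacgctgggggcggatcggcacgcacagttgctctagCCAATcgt

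Library totals were 18.28 to 51.95 M counts (median 38.44 M), and the isotype PBS Tregs had the lowest totals among the Treg groups (18.28 to 34.58 M). The labels matched their markers: the summed level of Foxp3, Il2ra, Ikzf2, Ctla4 and Tnfrsf18 was 2409 to 4547 CPM (counts per 1 M library counts, scaled by TMM) in Treg libraries and 332 to 1419 CPM in Tcon libraries, and none of the T cell or Treg markers was at 0 in any library. Of the Treg libraries, isotype PBS replicate 1 stood apart by its B cell markers (567 CPM against 103 to 132 in the other 3 of its group) and MHC II block WT IL-2 replicate 1 by its myeloid markers (460 CPM) and its B cell markers (533 CPM). Of the Tcon libraries, the isotype WT IL-2 pair disagreed: the 52 genes summed to 3347 and 2152 CPM in replicates 1 and 2, and replicate 2 held 1419 CPM of Treg markers. In bulk RNA, fewer cells of a type and less RNA per cell cannot be told apart, so a level here is an average over cycling and resting cells.

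All 52 genes were detected in every library and passed the low-value filter (CPM over 0.5 in at least 4 libraries). Per unit length (FPKM, mean over the 32 Treg libraries), Pcna was the most abundant (129 FPKM), followed by Mcm6 (71.8) and Rpa1 (59.7), and Orc1 (1.05) and Brca2 (0.997) were the least abundant. Pcna in Tregs of isotype PBS mice was at 145, 146, 151 and 141 FPKM, far above Mcm6 at 68.3, 62.4, 65.3 and 69.1 FPKM. Mcm6 exceeded the other subunits of its own helicase ring: Mcm4 followed with a mean of 34.8 FPKM and Mcm2 was lowest with 26.4. Summed over the 52 genes, the level was 2228 to 2468 CPM in isotype PBS Tregs, 2261 to 2493 with WT IL-2, 2051 to 2195 with H16R and 2128 to 2637 with 3x. Under MHC II block it was 2191 to 2280, 2062 to 2211, 2285 to 2602 and 2517 to 3214 CPM in the same order. Every MHC II block 3x library therefore lay above every isotype PBS library, whereas the isotype H16R libraries all lay below them.

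In the isotype arm, H16R lowered a larger share of the replication genes in Tregs than of all genes. With 3x and WT IL-2 the lowered share was near that of all genes. H16R lowered 32 of 52 and raised 3 (median log2 fold change -0.22), 3x lowered 20 and raised 12 (median -0.07), and WT IL-2 lowered 13 and raised 6 (median -0.09), each against PBS with edgeR's quasi-likelihood test at an adjusted p under 0.1 over all 12392 genes tested. These comparisons share the 4 PBS libraries. The background was large: with H16R 31.3% of all genes tested were higher and 32.8% lower, with 3x 31.3% of all genes tested were higher and 32.3% lower, and with WT IL-2 26.0% of all genes tested were higher and 26.2% lower, with medians over all genes of -0.01, -0.01 and -0.01. The lowered share with H16R (32 of 52) thus stood above its background, that with 3x (20 of 52, 38.5%) near it, and the counts with WT IL-2 at or under it. With H16R, all 4 libraries lay below all 4 PBS libraries for 25 of the 52 genes and above them for 2 (over all genes, 23.5% below and 23.1% above). With WT IL-2 these counts were 9 below and 4 above (16.0% and 17.3%), and with 3x 6 below and 7 above (23.7% and 22.2%). Over the same comparisons the 20 mitotic genes went the other way: 17, 18 and 20 rose with WT IL-2, H16R and 3x, none fell, and their median log2 fold changes were 0.47, 0.53 and 1.12.

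Under MHC II block the same molecules gave another picture. Against block PBS, 3x raised 37 of 52 genes and lowered 3 (median 0.35), H16R raised 19 and lowered 8 (median 0.10), and WT IL-2 raised 4 and lowered 5 (median -0.04). Of all genes tested, 34.7% were higher and 38.3% lower with 3x, 32.7% and 33.8% with H16R, and 21.9% and 13.7% with WT IL-2, so that the share raised by 3x (71.2% of the 52) stood above its background, that raised by H16R (36.5%) was near it, and those with WT IL-2 were below it. For 35 of the 52 genes all 4 block 3x libraries exceeded all 4 block PBS libraries (32.2% of all genes), and for 2 they lay below (31.6%). For WT IL-2 the count of 9 was 14 without isotype PBS replicate 4, 16 with total counts (3 higher and 13 lower), 16 or 17 with limma and 14 with only the groups compared in the fit.

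**Figure D1:**
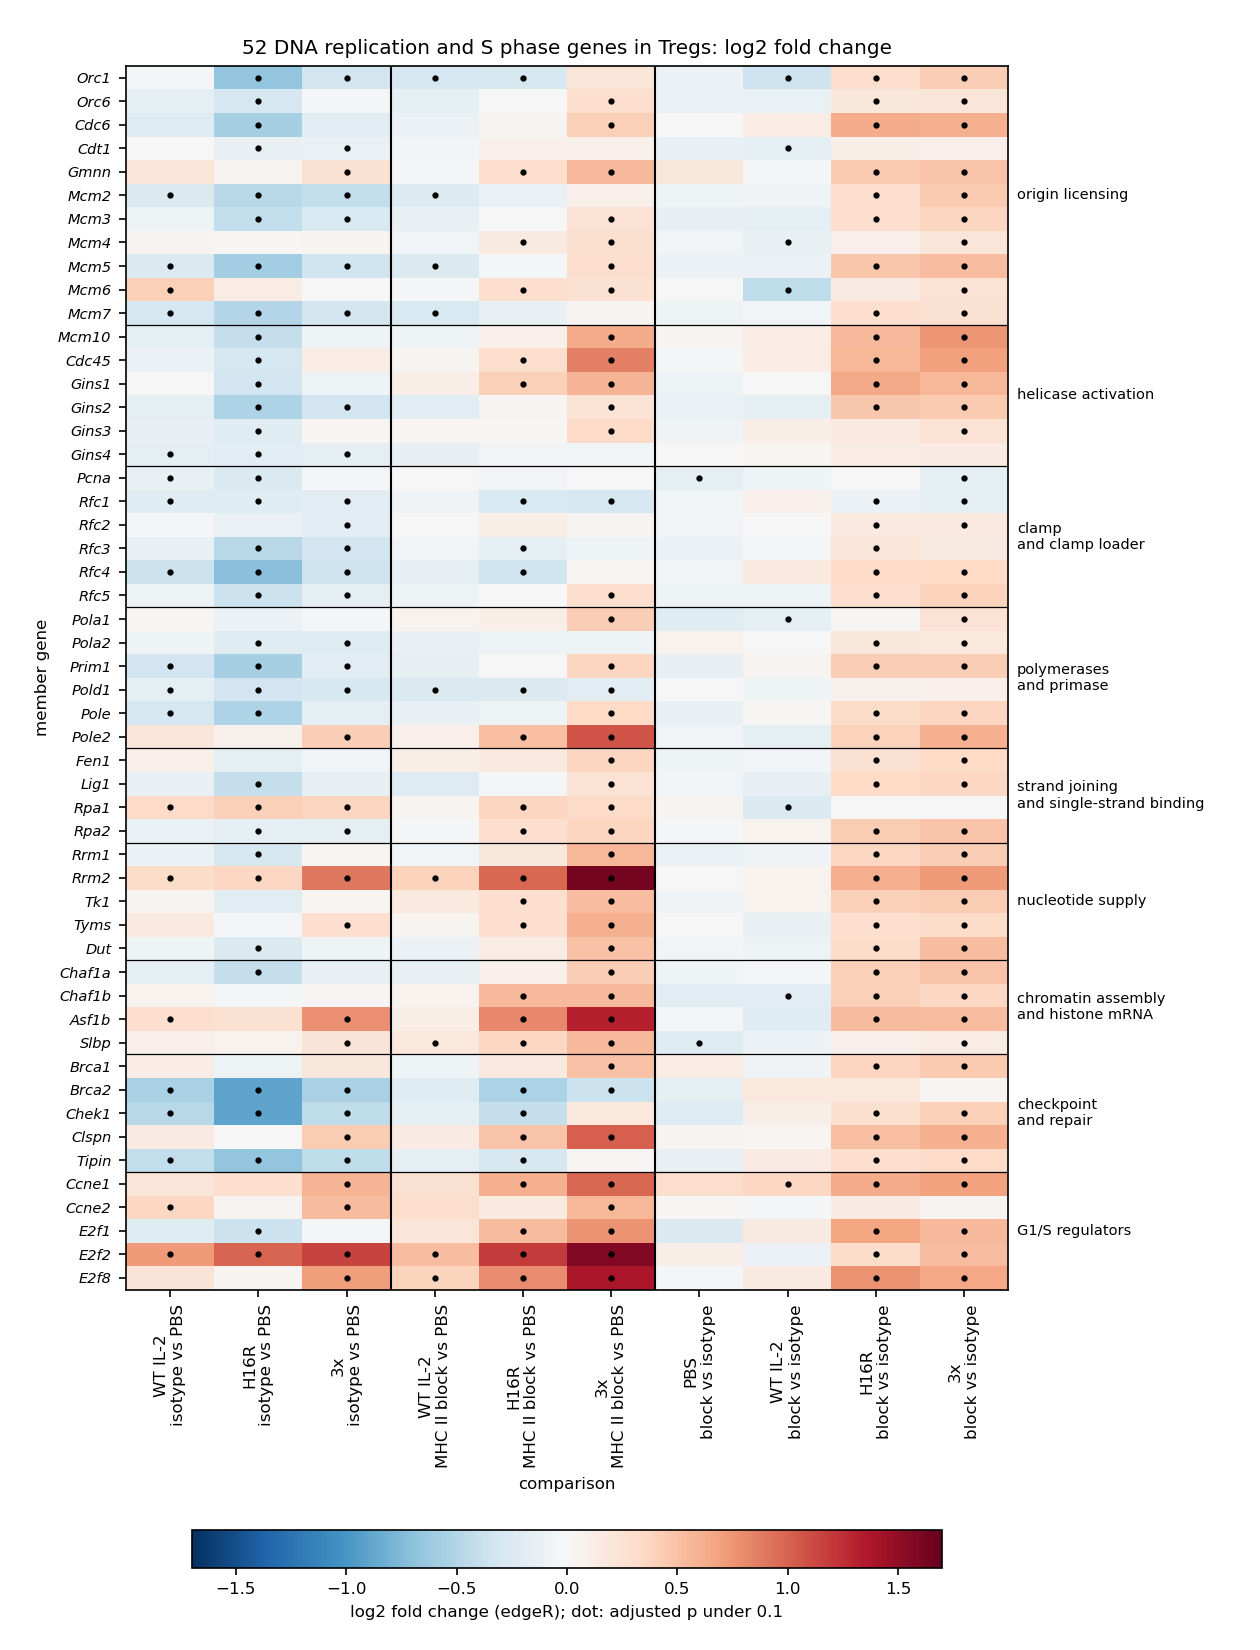
Log2 fold change of each of the 52 genes (rows, grouped by role) in 10 Treg comparisons (columns); red is higher and blue lower in the group named first, and a dot marks an adjusted p under 0.1. Blue prevails in the column of H16R against PBS in the isotype arm (32 genes lowered), and red in those of 3x against PBS under MHC II block (37 raised) and of the block against isotype with H16R and 3x (39 and 43 raised).

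The median over the 52 genes in each library shows the same by mouse. On the log2 scale relative to the isotype PBS mean, these medians ran from -0.08 to 0.12 in isotype PBS, -0.12 to 0.04 with WT IL-2, -0.31 to -0.18 with H16R and -0.18 to 0.15 with 3x, and from -0.09 to -0.01, -0.19 to -0.06, -0.07 to 0.12 and 0.10 to 0.43 in the MHC II block arm. The isotype H16R libraries were below all isotype PBS libraries, and the isotype 3x libraries overlapped with them. Mitotic medians ran from -0.13 to 0.26 in isotype PBS to 0.81 to 1.45 with isotype 3x and 1.40 to 1.96 with 3x under block, without overlap between PBS and 3x in either arm.

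**Figure D2:**
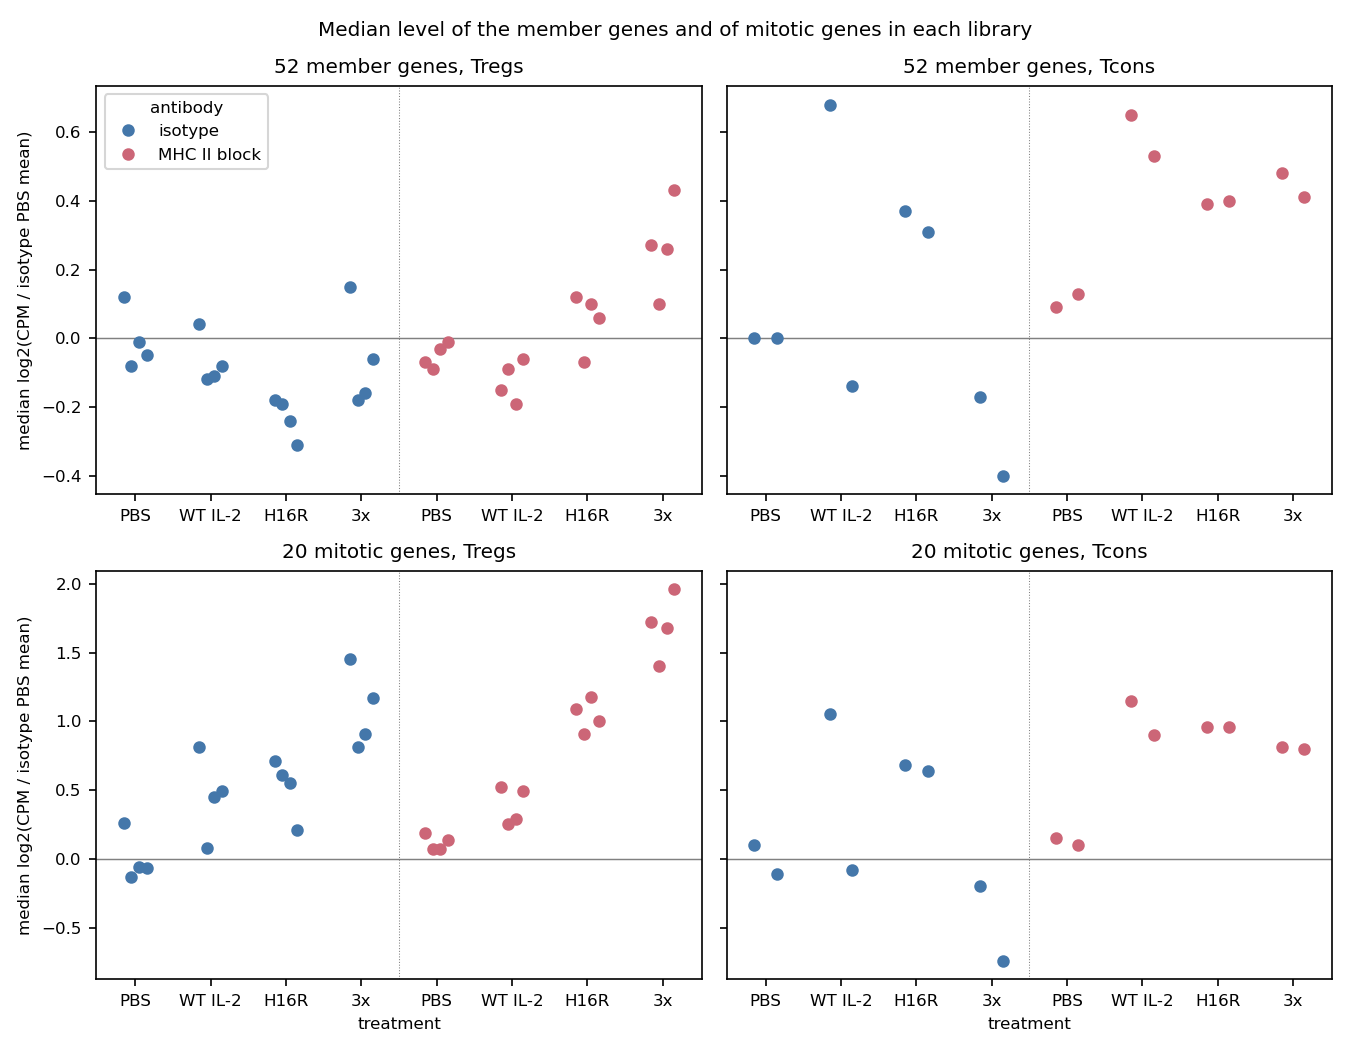
Each point is 1 library: the median over the 52 genes (top) or over 20 mitotic genes (bottom) of log2(CPM / isotype PBS mean), for Tregs (left, 4 per group) and Tcons (right, 2 per group) by treatment and antibody. In Tregs the mitotic median was above 0 in every IL-2 group, whereas the median of the 52 genes was below 0 in all 4 isotype H16R libraries (-0.31 to -0.18) and above 0 in all 4 block 3x libraries (0.10 to 0.43).

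Most genes of origin licensing fell with H16R. Of its 11 genes, H16R lowered 8 and raised none in the isotype arm, 3x lowered 6 and raised 1, and WT IL-2 lowered 3 and raised 1. Of all genes tested, 32.8%, 32.3% and 26.2% were lower in these comparisons, so the share lowered by WT IL-2 (27.3% of the 11) was at the background, and the counts of the other roles, each of 4 to 6 genes, are too small to set against it. Mcm2, a subunit of the helicase ring, was at 111, 102, 104 and 99.8 CPM in isotype PBS Tregs, 76.3, 78.6, 72.8 and 72.8 with H16R and 87.8, 72.7, 70.6 and 78.9 with 3x. All 8 mutein libraries were below the 4 PBS libraries, with log2 fold changes of -0.47 ± 0.07 (adjusted p = 2.74e-06) for H16R and -0.42 ± 0.07 (adjusted p = 1.54e-05) for 3x. With 3x under MHC II block, Mcm2 was at 102, 92.1, 107 and 125 CPM against 100, 94.3, 102 and 102 in block PBS, which did not pass (0.09 ± 0.07 (adjusted p = 0.275)). Mcm5 fell most of the ring with H16R (-0.59 ± 0.10 (adjusted p = 1.88e-05)) and rose with 3x under block (0.28 ± 0.10 (adjusted p = 0.0162)). Orc1, the ATPase subunit of the origin recognition complex, was at 4.02, 2.71, 4.27 and 3.77 CPM in isotype PBS and 2.61, 2.32, 2.09 and 2.31 with H16R, again without overlap (-0.67 ± 0.13 (adjusted p = 8.41e-05)). Cdc6, the loader of the ring, fell with H16R (-0.57 ± 0.14 (adjusted p = 0.00101)), and Mcm4 did not pass with any molecule in this arm.

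Mcm6 departed from its partners in the ring. It was at 204, 188, 199 and 211 CPM in isotype PBS and 257, 305, 242 and 257 with WT IL-2, all 4 above PBS (0.40 ± 0.07 (adjusted p = 2.68e-05)), and at 230, 220, 204 and 219 with H16R and 224, 186, 200 and 191 with 3x. Neither mutein passed against PBS (0.13 ± 0.07 (adjusted p = 0.115) for H16R and 0.01 ± 0.07 (adjusted p = 0.923) for 3x), and Mcm6 was lower with 3x than with WT IL-2 (-0.39 ± 0.07 (adjusted p = 0.000105)). Under MHC II block the WT IL-2 libraries held 173, 209, 193 and 202 CPM and the PBS libraries 191, 199, 199 and 207, which overlapped. Geminin (Gmnn), which inhibits Cdt1 and so stops a second round of licensing, was at 15.0, 8.75, 14.2 and 12.6 CPM in isotype PBS, 18.0, 13.3, 13.3 and 15.8 with 3x and 22.6, 17.1, 20.4 and 25.6 with 3x under block. It rose with 3x in both arms (0.26 ± 0.13 (adjusted p = 0.0959) with isotype and 0.55 ± 0.13 (adjusted p = 0.000419) under block), although the isotype groups overlapped, with 2 of the 4 isotype 3x libraries below 2 of the PBS libraries.

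The helicase activators followed the licensing genes with H16R: all 6 fell in the isotype arm, from -0.18 for Gins4 to -0.53 for Gins2. Of all genes tested, 32.8% were lower there, and 34.7% were higher with 3x under block. Gins2, a GINS subunit, was at 34.6, 33.3, 31.1 and 26.8 CPM in isotype PBS and 22.4, 22.4, 21.5 and 21.0 with H16R, with no overlap (-0.53 ± 0.09 (adjusted p = 1.47e-05)), and also fell with 3x (-0.33 ± 0.09 (adjusted p = 0.00275)). Gins4, its most abundant partner by FPKM, was at 26.6, 25.6, 29.2 and 20.9 CPM in isotype PBS and 21.5, 23.8, 22.9 and 22.3 with H16R (-0.18 ± 0.08 (adjusted p = 0.0456)) and did not pass under block with 3x (-0.04 ± 0.08 (adjusted p = 0.670)). Under block 3x raised the other 5, led by Cdc45 (0.85 ± 0.12 (adjusted p = 3.48e-07)) and Mcm10 (0.63 ± 0.15 (adjusted p = 0.000431)), which bring polymerase to the unwound origin.

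Of the 6 genes of the clamp and its loader, 5 fell with H16R in the isotype arm, where 32.8% of all genes tested were lower. Under block with 3x only Rfc5 rose (0.30 ± 0.08 (adjusted p = 0.00135)) while Rfc1, the large subunit of the loader, fell (-0.29 ± 0.04 (adjusted p = 8.53e-08)). There 34.7% of all genes tested were higher and 38.3% lower, and 6 genes are too few to set against these shares. Pcna was at 219, 222, 234 and 216 CPM in isotype PBS, 191, 194, 181 and 188 with H16R and 188, 178, 197 and 224 with 3x under block. It fell with H16R (-0.24 ± 0.06 (adjusted p = 0.00104)), without overlap. With 3x it was lower under block than with isotype, where it was at 226, 203, 205 and 231 CPM (-0.16 ± 0.06 (adjusted p = 0.0267)), and these groups overlapped. Rfc4 was at 13.7, 12.8, 13.2 and 12.2 CPM in isotype PBS, 11.7, 8.37, 10.4 and 9.97 with WT IL-2, 8.85, 8.31, 7.62 and 6.94 with H16R and 12.4, 9.59, 8.48 and 9.98 with 3x, and fell with each (-0.36 ± 0.11 (adjusted p = 0.00641), -0.71 ± 0.11 (adjusted p = 2.17e-06) and -0.35 ± 0.11 (adjusted p = 0.00545)). All WT IL-2 and H16R libraries were below PBS, and 1 of the 3x libraries reached the PBS range. Rfc2 was at 71.6, 60.0, 67.8 and 58.9 CPM in isotype PBS and 58.9, 55.4, 58.1 and 54.5 with 3x (-0.18 ± 0.06 (adjusted p = 0.0136)). Rfc3 was at 16.9, 13.2, 15.3 and 12.9 CPM in isotype PBS and 11.0, 10.4, 10.2 and 10.8 with H16R (-0.47 ± 0.09 (adjusted p = 4.19e-05)). Rfc1 was at 78.5, 79.6, 74.6 and 86.0 CPM in isotype PBS and 62.6, 64.9, 60.4 and 64.7 with 3x under block. Rfc1 fell with every IL-2 molecule in the isotype arm, by a log2 fold change between -0.21 and -0.19.

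Of the 6 polymerase and primase genes, H16R lowered 4 and raised none in the isotype arm, and 3x under block raised 4 and lowered 1. Of all genes tested, 32.8% were lower with isotype H16R, and 34.7% were higher and 38.3% lower with block 3x. A group of 6 genes is too small to set against these shares. Pold1, the catalytic subunit of polymerase delta, was at 70.8, 66.9, 69.2 and 55.1 CPM in isotype PBS, 53.4, 53.7, 51.2 and 52.4 with H16R and 59.7, 51.7, 50.9 and 54.6 with 3x, and at 56.9, 53.8, 63.1 and 61.4 with 3x under block against 66.9, 65.8, 63.5 and 67.9 in block PBS. It fell in all 6 comparisons with PBS, from -0.17 to -0.32, and was the only polymerase gene to fall with 3x under block (-0.18 ± 0.07 (adjusted p = 0.0212)). Prim1, the catalytic primase that lays down RNA primers, was at 18.5, 17.5, 18.8 and 17.3 CPM in isotype PBS, 12.1, 13.9, 11.7 and 11.1 with H16R and 20.9, 18.9, 21.0 and 24.4 with 3x under block, where block PBS held 16.1, 16.7, 16.6 and 16.2. It fell with H16R (-0.57 ± 0.09 (adjusted p = 2.41e-06)) and rose with 3x under block (0.37 ± 0.08 (adjusted p = 0.000333)). Pole2, a subunit of the leading-strand polymerase, was at 5.99, 4.57, 5.58 and 6.40 CPM in isotype PBS, 9.53, 6.33, 5.95 and 8.18 with 3x and 12.2, 9.42, 11.8 and 12.8 with 3x under block. It rose in both arms with 3x (0.42 ± 0.12 (adjusted p = 0.00521) and 1.07 ± 0.12 (adjusted p = 1.30e-08)), and its partner Pole fell with H16R in the isotype arm (-0.53 ± 0.12 (adjusted p = 0.000287)).

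Rpa1, the large subunit of the protein that coats single-stranded DNA, rose with every molecule in the isotype arm while its partner Rpa2 did not. Rpa1 was at 158, 159, 159 and 162 CPM in isotype PBS, 214, 197, 199 and 188 with WT IL-2, 213, 203, 223 and 208 with H16R and 211, 198, 200 and 207 with 3x. Every IL-2 library was above every PBS library (0.32 ± 0.04 (adjusted p = 1.40e-07), 0.41 ± 0.04 (adjusted p = 6.78e-10) and 0.37 ± 0.04 (adjusted p = 7.38e-09)). Rpa2 was at 37.8, 35.9, 34.2 and 31.3 CPM in isotype PBS, 30.8, 30.7, 31.4 and 30.6 with H16R, 33.7, 30.3, 29.8 and 30.6 with 3x and 43.3, 38.7, 44.8 and 50.0 with 3x under block. It fell with both muteins in the isotype arm (-0.17 ± 0.06 (adjusted p = 0.0203) and -0.16 ± 0.06 (adjusted p = 0.0345)) and rose with them under block (0.28 ± 0.06 (adjusted p = 0.000274) and 0.36 ± 0.06 (adjusted p = 9.75e-06)). Of the enzymes that finish the lagging strand, the ligase Lig1 fell with H16R in the isotype arm (-0.40 ± 0.10 (adjusted p = 0.00143)), whereas the flap nuclease Fen1 did not pass (-0.15 ± 0.09 (adjusted p = 0.171)), and both rose with 3x under block.

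Nucleotide supply held the largest rise of the 52 with 3x under block, that of Rrm2. Rrm2, the regulated subunit of ribonucleotide reductase, was at 40.1, 31.4, 35.4 and 31.8 CPM in isotype PBS, 53.4, 34.1, 41.5 and 44.6 with WT IL-2, 47.9, 46.4, 48.2 and 35.5 with H16R and 81.9, 51.8, 55.4 and 67.4 with 3x, and at 36.6, 33.3, 35.6 and 33.1 in block PBS and 109, 84.0, 105 and 135 with 3x under block. It rose with 3x in both arms (0.89 ± 0.14 (adjusted p = 5.64e-06) and 1.63 ± 0.14 (adjusted p = 5.75e-11)), with no overlap between 3x and PBS, and by less with WT IL-2 and H16R in the isotype arm (0.31 ± 0.14 (adjusted p = 0.0749) and 0.35 ± 0.14 (adjusted p = 0.0349)). Rrm1, the constitutive subunit, fell with H16R in the isotype arm (-0.27 ± 0.10 (adjusted p = 0.0203)). Dut, which removes dUTP, was at 52.5, 48.8, 51.9 and 39.4 CPM in isotype PBS, 43.4, 41.8, 41.6 and 36.8 with H16R and 63.7, 55.1, 69.6 and 79.0 with 3x under block (-0.24 ± 0.09 (adjusted p = 0.0275) and 0.50 ± 0.09 (adjusted p = 2.24e-05)). Thymidylate synthase (Tyms) was at 21.3, 20.1, 18.9 and 16.8 CPM in isotype PBS, 28.2, 20.6, 22.3 and 22.8 with 3x and 28.9, 26.0, 29.5 and 34.2 with 3x under block, and rose in both arms with 3x (0.29 ± 0.09 (adjusted p = 0.00769) and 0.61 ± 0.09 (adjusted p = 7.28e-07)). All 5 genes of this group rose with 3x under block, where 34.7% of all genes tested were higher.

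Chromatin assembly, nucleotide supply and the G1/S regulators were the groups in which 3x in the isotype arm raised genes and lowered none. The raised genes were Asf1b and Slbp, Rrm2 and Tyms, and Ccne1, Ccne2, E2f2 and E2f8. Of all genes tested, 31.3% were higher and 32.3% lower in this comparison. These groups are too small to set against those shares. Asf1b, a histone chaperone, was at 19.1, 17.1, 16.5 and 14.5 CPM in isotype PBS, 37.5, 23.2, 26.1 and 28.4 with 3x and 40.8, 33.7, 44.0 and 49.8 with 3x under block, rising in both arms (0.78 ± 0.14 (adjusted p = 2.06e-05) and 1.32 ± 0.13 (adjusted p = 1.37e-09)). Slbp, which binds the stem-loop of histone mRNAs, was at 63.7, 64.9, 64.7 and 66.1 CPM in isotype PBS, 84.1, 68.6, 73.1 and 74.3 with 3x and 80.1, 75.4, 82.9 and 92.6 with 3x under block (0.22 ± 0.05 (adjusted p = 0.000597) and 0.55 ± 0.05 (adjusted p = 3.09e-10)). The CAF-1 subunits differed: Chaf1a fell with H16R in the isotype arm (-0.41 ± 0.11 (adjusted p = 0.00311)), whereas Chaf1b, at 20.6, 21.0, 20.8 and 20.5 CPM in isotype PBS and 21.5, 21.3, 19.8 and 18.5 with H16R, did not pass (-0.03 ± 0.07 (adjusted p = 0.735)). Under block with H16R, Chaf1b was at 26.3, 25.4, 28.7 and 27.2 CPM, above all block PBS libraries, which held 17.7, 18.2, 18.1 and 19.3 (0.55 ± 0.07 (adjusted p = 1.76e-07)).

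The checkpoint and repair genes held the deepest falls of the 52 in the 6 comparisons with PBS. Brca2, which loads the recombinase at broken forks, was at 14.7, 13.2, 11.9 and 19.0 CPM in isotype PBS, 9.44, 10.6, 8.45 and 11.5 with WT IL-2, 8.57, 8.72, 6.12 and 8.20 with H16R and 11.5, 9.39, 8.88 and 9.86 with 3x, and fell with each (-0.55 ± 0.13 (adjusted p = 0.000749), -0.89 ± 0.13 (adjusted p = 1.08e-06) and -0.55 ± 0.13 (adjusted p = 0.000457)). Chek1, the checkpoint kinase, was at 8.36, 8.21, 8.79 and 9.24 CPM in isotype PBS, 4.94, 5.30, 3.90 and 4.46 with H16R and 8.51, 8.03, 8.57 and 8.97 with 3x under block. It fell by as much as Brca2 with H16R (-0.89 ± 0.11 (adjusted p = 1.61e-07)), and with 3x under block it did not pass (0.18 ± 0.11 (adjusted p = 0.139)). Tipin, of the fork protection complex, was at 22.5, 23.9, 22.0 and 24.7 CPM in isotype PBS and 14.8, 15.5, 13.9 and 14.1 with H16R (-0.67 ± 0.08 (adjusted p = 4.22e-08)) and fell with all 3 molecules. Clspn, the adaptor through which the checkpoint reaches Chek1, went up instead: it was at 18.7, 14.7, 14.2 and 14.5 CPM in isotype PBS, 28.5, 16.3, 17.3 and 21.6 with 3x and 30.7, 26.7, 33.6 and 38.9 with 3x under block (0.43 ± 0.14 (adjusted p = 0.0119) and 1.01 ± 0.14 (adjusted p = 4.31e-07)). Brca1 was raised only with 3x under block among the 6 comparisons with PBS (0.50 ± 0.12 (adjusted p = 0.000554)).

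Of the 5 G1/S regulators, 4 rose with 3x in the isotype arm, all 5 rose with 3x under block, and only E2f1 fell in any comparison with PBS. Of all genes tested, 31.3% were higher with isotype 3x and 34.7% with block 3x. A group of 5 genes is too small to set against these shares. E2f2, an activating E2F, was at 57.5, 48.1, 48.9 and 45.7 CPM in isotype PBS, 94.5, 79.7, 81.7 and 78.7 with WT IL-2, 99.2, 93.1, 112 and 94.2 with H16R and 129, 92.8, 108 and 113 with 3x, with no IL-2 library inside the PBS range (0.73 ± 0.09 (adjusted p = 1.47e-07), 0.99 ± 0.09 (adjusted p = 2.49e-10) and 1.15 ± 0.09 (adjusted p = 2.07e-11)). Its relative E2f1 fell with H16R in the isotype arm, from 13.9, 9.44, 9.84 and 8.20 CPM to 7.92, 8.03, 8.79 and 7.47 (-0.37 ± 0.15 (adjusted p = 0.0353)), and rose with 3x under block, from 7.65, 9.36, 8.55 and 9.63 to 14.0, 14.4, 16.0 and 16.0 (0.77 ± 0.15 (adjusted p = 4.67e-05)). E2f8, an atypical E2F that represses the same targets, was at 10.8, 7.87, 9.73 and 10.3 CPM in isotype PBS, 20.8, 12.1, 12.9 and 17.3 with 3x and 24.7, 20.9, 24.7 and 31.0 with 3x under block (0.71 ± 0.16 (adjusted p = 0.000323) and 1.39 ± 0.15 (adjusted p = 6.91e-09)). Both E-type cyclins rose with 3x. Ccne1 was at 8.85, 6.30, 6.24 and 6.12 CPM in isotype PBS and 12.9, 8.37, 9.38 and 10.6 with 3x (0.58 ± 0.15 (adjusted p = 0.00175)). Ccne2 was at 3.57, 2.97, 3.23 and 4.27 CPM in isotype PBS, 4.70, 4.37, 4.25 and 4.51 with WT IL-2 and 5.32, 4.30, 4.45 and 6.10 with 3x (0.35 ± 0.14 (adjusted p = 0.0420) and 0.54 ± 0.14 (adjusted p = 0.00151)). Ccne1 in isotype PBS replicate 1 lay apart from the other 3 and inside the 3x range.

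**Figure D3:**
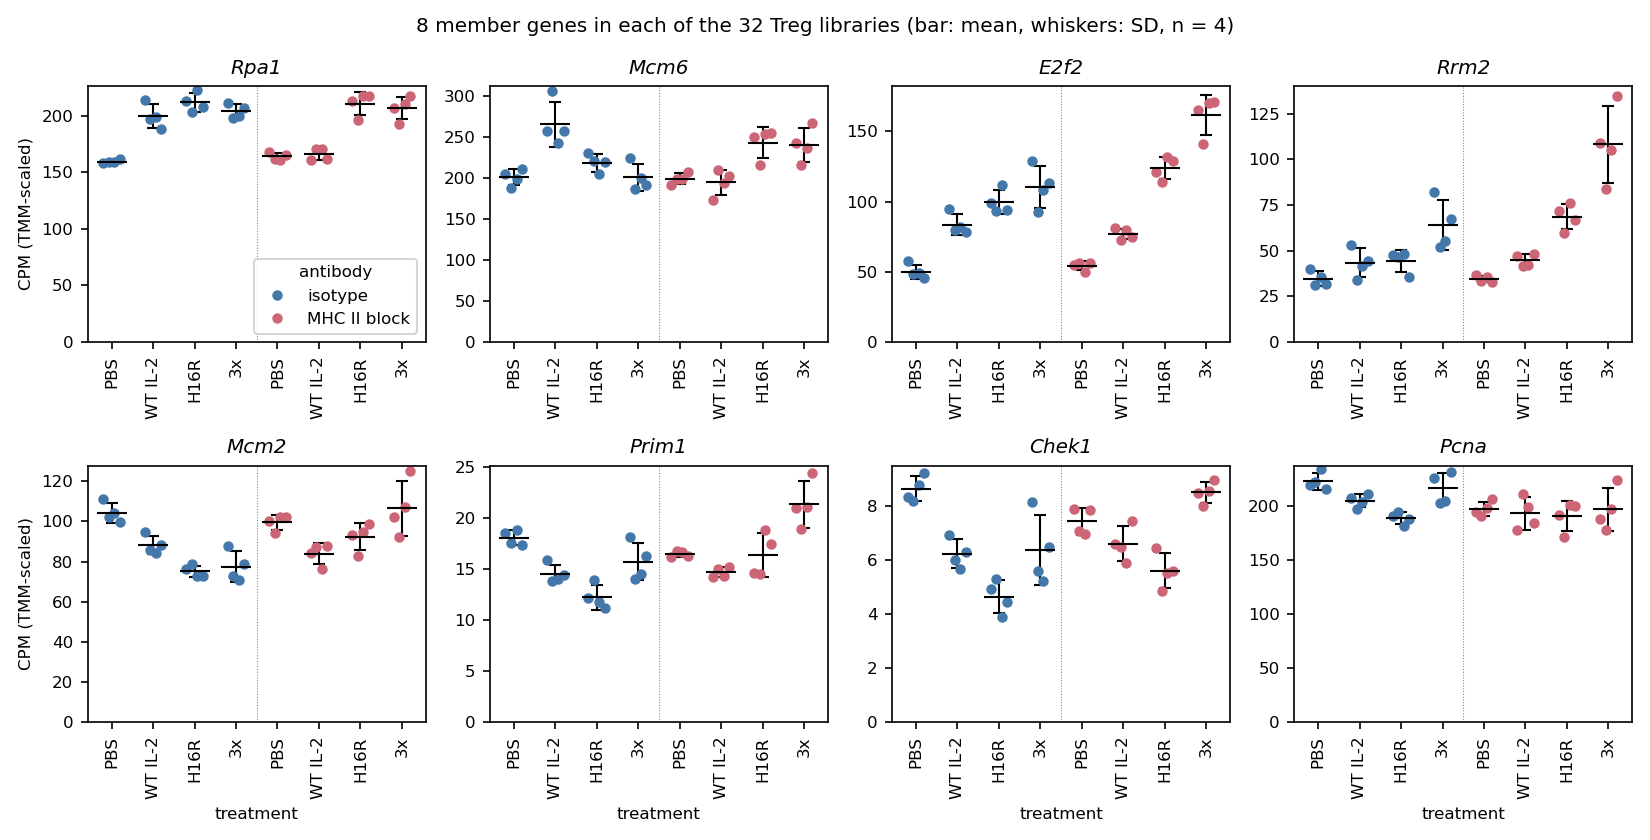
CPM (TMM-scaled, linear axis from 0) of 8 of the genes in each of the 32 Treg libraries by treatment, blue for isotype and red for MHC II block; the black bar and whiskers are the mean and SD of 4 libraries. Rpa1 and E2f2 rise with every molecule in the isotype arm, Mcm6 with WT IL-2 in that arm, and Mcm2, Prim1 and Chek1 are lowest with isotype H16R.

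Genes whose promoter window held an E2F motif were set beside those whose window did not. With 3x under block, 10 of 16 genes with a motif rose (median log2 fold change 0.26, range -0.36 to 1.57) and 21 of 27 without (median 0.50, range -0.29 to 1.63). With H16R in the isotype arm, 11 of 16 with a motif fell (median -0.36) and 16 of 27 without (median -0.21). Of the printed promoters with E2F motifs, Mcm5 and Cdc6 belonged to genes that fell with H16R, and Mcm6 and Clspn to genes that did not pass with it (0.13 ± 0.07 (adjusted p = 0.115) and 0.01 ± 0.15 (adjusted p = 0.945)). Of all genes tested, 34.7% were higher with block 3x and 32.8% lower with isotype H16R. The relation between motif and response was not tested.

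At the matched dose of 25 µg and the matched day, the molecules differed from each other most in the comparison of 3x with WT IL-2 under block. In the isotype arm, 16 of the 52 genes were lower and 1 higher with H16R than with WT IL-2 (of all genes tested, 9.76% lower and 8.87% higher). The higher gene was E2f2 (0.26 ± 0.09 (adjusted p = 0.0451)), and the largest difference downward was that of Orc1 (-0.64 ± 0.13 (adjusted p = 0.00175)). The count of 17 was 6 without isotype H16R replicate 3. Against WT IL-2, 3x had 6 genes higher and 5 lower (16.9% and 17.7% of all genes). The higher ones included Rrm2 (0.58 ± 0.14 (adjusted p = 0.00246)) and Asf1b (0.49 ± 0.13 (adjusted p = 0.00640)), and the lower ones were Orc1, Mcm2, Mcm6, Rfc2 and Rfc3, of which Mcm6 differed most (-0.39 ± 0.07 (adjusted p = 0.000105)). Without isotype 3x replicate 4 the count of 11 was 7. Against H16R, 3x had 19 genes higher and none lower (5.76% and 5.77% of all genes), among them Chek1 (0.47 ± 0.11 (adjusted p = 0.0107)) and E2f8 (0.67 ± 0.15 (adjusted p = 0.00694)). This count was 9 without isotype H16R replicate 4, 4 without isotype 3x replicate 1 and 11 without isotype 3x replicate 4.

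Under MHC II block more of the 52 genes were called between the muteins and WT IL-2. With 3x, 43 genes were higher and 1 lower than with WT IL-2 (median 0.41), where 30.0% of all genes tested were higher and 38.7% lower. Rrm2 differed most (1.25 ± 0.14 (adjusted p = 1.91e-08)). Pole2 was at 5.37, 5.83, 5.19 and 6.39 CPM with WT IL-2 and 12.2, 9.42, 11.8 and 12.8 with 3x in this arm, without overlap (0.99 ± 0.12 (adjusted p = 1.06e-07)). With H16R, 22 were higher and 3 lower than with WT IL-2 (median 0.16), where 25.5% of all genes tested were higher and 32.0% lower, and this count of 25 was 16 without MHC II block WT IL-2 replicate 3 or MHC II block H16R replicate 3. With 3x, 32 were higher and none lower than with H16R (median 0.28), where 12.7% of all genes tested were higher and 12.5% lower. Chek1 and Mcm10 were among those higher (0.59 ± 0.11 (adjusted p = 0.000554) and 0.54 ± 0.15 (adjusted p = 0.00957)). H16R and 3x were not told apart for Rpa1 in either arm (-0.05 ± 0.04 (adjusted p = 0.532) with isotype and -0.03 ± 0.04 (adjusted p = 0.598) under block), nor for Pcna, Mcm6 and Chaf1b under block (0.04 ± 0.06 (adjusted p = 0.738), -0.02 ± 0.07 (adjusted p = 0.858) and 0.00 ± 0.07 (adjusted p = 0.981)).

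Blocking MHC II raised the replication genes in Tregs of mutein-treated mice and not in those of PBS or WT IL-2 mice. Against isotype, the block raised 43 of 52 and lowered 2 with 3x (median 0.38), and raised 39 and lowered 1 with H16R (median 0.30). With PBS it raised none and lowered 2, Pcna and Slbp (median -0.06), and with WT IL-2 it raised 1, Ccne1, and lowered 7 (median -0.04). Of all genes tested, 27.2% were higher and 26.9% lower with 3x, 15.4% and 15.2% with H16R, 6.00% and 8.13% with PBS, and 18.2% and 15.3% with WT IL-2. The mutein counts thus stood above the background, and the counts with PBS and WT IL-2 did not. The PBS count was 4 without isotype 3x replicate 1 or MHC II block WT IL-2 replicate 1 and 1 without MHC II block PBS replicate 1, and the WT IL-2 count 5 without MHC II block WT IL-2 replicate 1. All 4 block libraries exceeded all 4 isotype libraries for 37 of the 52 genes with H16R (13.2% of all genes) and for 18 with 3x (22.9%), and lay below them for 1 and 1 (12.2% and 18.9%). The genes lowered by the block were Rfc1 with H16R (-0.10 ± 0.04 (adjusted p = 0.0440)) and Rfc1 and Pcna with 3x (-0.16 ± 0.04 (adjusted p = 0.00126) and -0.16 ± 0.06 (adjusted p = 0.0267)).

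A direct test of the difference between the arms, as an interaction of IL-2 and antibody, gave 40 genes with a higher response to 3x under block and none with a lower one (median 0.44), where 20.3% of all genes tested were higher and 18.7% lower. For H16R it gave 28 higher and none lower (median 0.37), where 10.6% of all genes tested were higher and 8.47% lower, and 18 without isotype PBS replicate 1. For WT IL-2 it gave 1 higher and 2 lower (median 0.03), where 11.7% of all genes tested were higher and 7.98% lower, and 5 without MHC II block WT IL-2 replicate 3. The interaction for H16R was led by E2f1, Prim1, Chaf1b, Gins2 and Rpa2, with differences of 0.92 ± 0.21, 0.56 ± 0.12, 0.58 ± 0.10, 0.57 ± 0.13 and 0.46 ± 0.09 (adjusted p = 0.00631, 0.00381, 0.000595, 0.00482 and 0.00162). Prim1, for example, was at 12.1, 13.9, 11.7 and 11.1 CPM with isotype H16R and 14.6, 14.5, 18.8 and 17.4 with block H16R, without overlap, whereas isotype and block PBS held 18.5, 17.5, 18.8 and 17.3 and 16.1, 16.7, 16.6 and 16.2. For 3x it was led by Rpa2, Chaf1b, Mcm2, Prim1 and Slbp (0.51 ± 0.09 (adjusted p = 0.000101), 0.53 ± 0.10 (adjusted p = 0.000349), 0.51 ± 0.10 (adjusted p = 0.000523), 0.56 ± 0.12 (adjusted p = 0.000948) and 0.32 ± 0.07 (adjusted p = 0.00149)). Mcm2 was at 87.8, 72.7, 70.6 and 78.9 CPM with isotype 3x and 102, 92.1, 107 and 125 with block 3x, again without overlap.

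For WT IL-2 the interaction named Rpa1 and Mcm6 with a lower response under block and Rfc1 with a higher one (-0.29 ± 0.05 (adjusted p = 0.000737), -0.42 ± 0.10 (adjusted p = 0.00341) and 0.13 ± 0.05 (adjusted p = 0.0878)). Rpa1 under block was at 168, 162, 161 and 165 CPM with PBS, 161, 171, 171 and 162 with WT IL-2, 213, 196, 217 and 217 with H16R and 207, 193, 210 and 217 with 3x. It did not pass with WT IL-2 in that arm (0.04 ± 0.04 (adjusted p = 0.506)) and rose with H16R and 3x (0.36 ± 0.04 (adjusted p = 7.47e-09) and 0.32 ± 0.04 (adjusted p = 2.44e-08)), for which the arms were not told apart (-0.05 ± 0.05 (adjusted p = 0.549) and -0.04 ± 0.05 (adjusted p = 0.596)). Tipin and Chek1 were next in the WT IL-2 interaction and did not pass (0.26 ± 0.11 (adjusted p = 0.112) and 0.32 ± 0.16 (adjusted p = 0.195)).

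**Figure D4:**
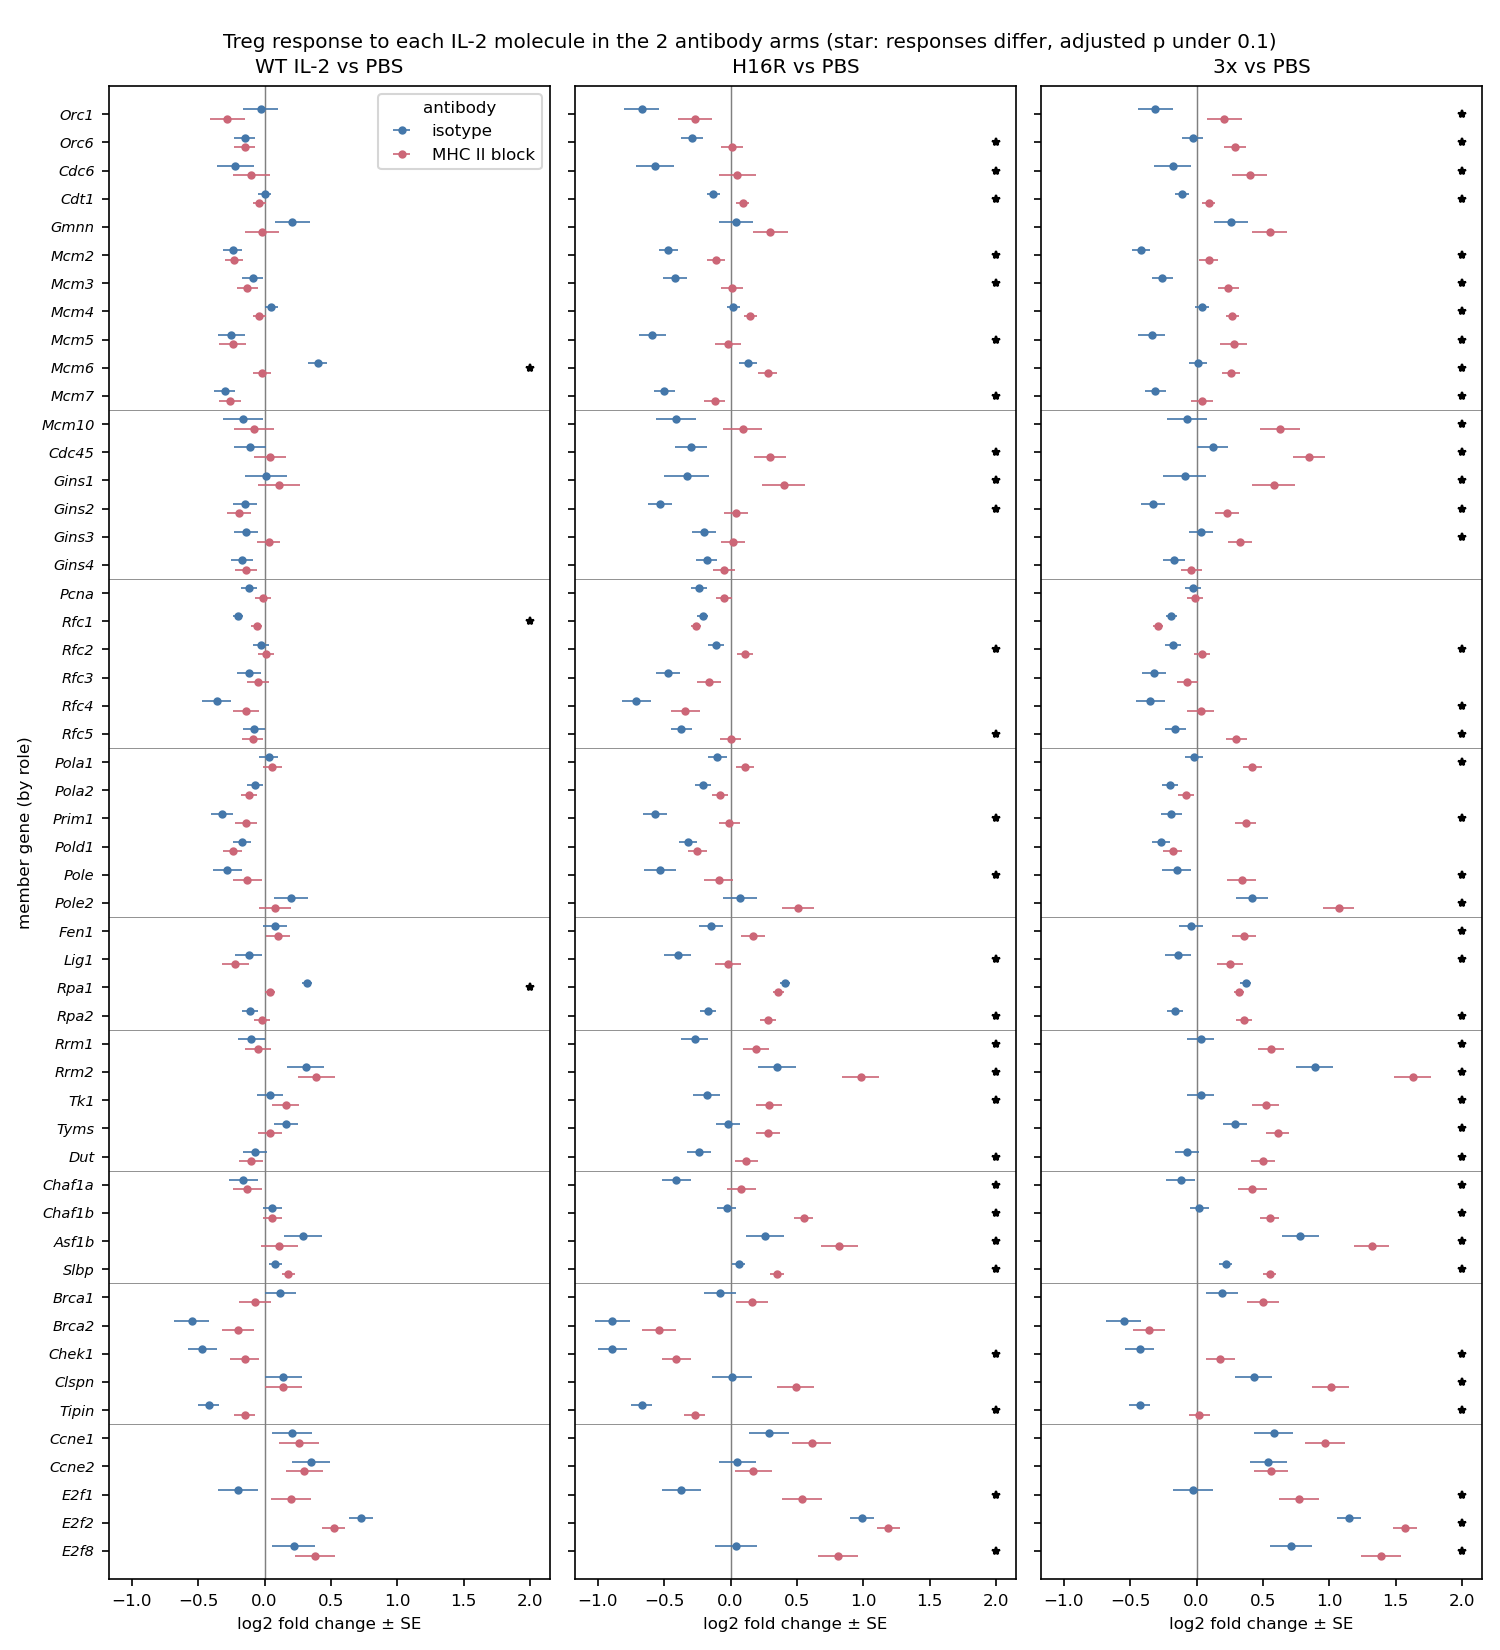
Log2 fold change against PBS of the same arm, with SE, for each of the 52 genes (rows, by role) and each IL-2 molecule (panels) in isotype (blue) and MHC II block (red) Tregs; a star marks an interaction with an adjusted p under 0.1. Red lies to the right of blue for most genes with H16R and 3x (28 and 40 stars, all toward a higher response under block), and the WT IL-2 panel has 3 stars.

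Markers of other cells moved with these comparisons. The plasma cell markers Jchain, Sdc1 and Mzb1, which proliferating plasmablasts also express, summed to 1518 to 1830 CPM in isotype PBS Tregs, 644 to 780 with WT IL-2, 196 to 448 with H16R and 84.0 to 181 with 3x, and to 603 to 1915, 1558 to 3155, 566 to 1241 and 592 to 1383 under block. All 3 fell with H16R and with 3x in the isotype arm, and all 3 were higher under block than with isotype for both muteins. With H16R in the isotype arm, where 32 of the 52 genes fell, all 6 B cell markers also fell (103 to 567 CPM with PBS and 26.6 to 34.7 with H16R), as did all 3 NK cell markers (21.1 to 36.0 and 7.47 to 11.8 CPM) and 3 of 4 myeloid markers, while all 5 Treg markers rose (2627 to 3259 and 4217 to 4320 CPM). The fourth myeloid marker, Itgam, rose with H16R and 3x (0.92 ± 0.40 (adjusted p = 0.0469) and 1.57 ± 0.39 (adjusted p = 0.00113)). The myeloid sums overlapped, at 78.1, 19.5, 9.77 and 13.2 CPM with PBS, where replicate 1 was far above the others, and 9.94 to 13.5 with H16R. The B cell, NK cell and myeloid lists also had these numbers of markers lowered with 3x in that arm. Between the arms with H16R, where 39 of the 52 genes were higher under block, 2 of 4 myeloid markers were higher (9.94 to 13.5 CPM with isotype and 25.9 to 50.0 with block), as were all 3 NK cell markers (7.47 to 11.8 and 19.3 to 33.3 CPM), 1 of 6 B cell markers (26.6 to 34.7 and 42.8 to 75.6 CPM), 1 of 4 erythroid markers (2.21 to 2.78 and 2.96 to 14.6 CPM) and 1 of 2 CD8 T cell markers (8.90 to 12.6 and 10.3 to 15.6 CPM). The myeloid, NK cell and B cell sums did not overlap between these arms. Against block PBS, 3x under block, where 37 of the 52 genes rose, had 2 of 3 plasma cell markers lower, with sums that overlapped. In that comparison both CD8 T cell markers rose (7.29 to 8.97 CPM with block PBS and 13.5 to 36.7 with 3x) and 1 of 4 myeloid markers rose (7.83 to 15.3 and 40.4 to 58.0 CPM), and neither sum overlapped. Of the 3 NK cell markers 2 rose and 1 fell, and of the 6 B cell markers none was called. Between the arms with 3x, all 4 erythroid markers tested also rose (0.805 to 1.32 CPM with isotype and 2.51 to 6.77 with block), as did 2 of 4 myeloid (14.1 to 20.6 and 40.4 to 58.0 CPM), 3 of 6 B cell (24.4 to 31.9 and 49.2 to 111 CPM), 2 of 3 NK cell (9.65 to 16.3 and 21.2 to 27.7 CPM) and both CD8 T cell markers (9.69 to 11.4 and 13.5 to 36.7 CPM). Of the Treg markers, 1 of 5 rose and 2 fell in that comparison. The part of these cells in the results was not tested. Without isotype PBS replicate 1 and MHC II block WT IL-2 replicate 1, the libraries with the highest B cell and myeloid sums, the counts of 40, 45, 40 and 28 genes called for the block with H16R, the block with 3x, and the interactions with 3x and H16R became 41, 45, 37 and 21. Neither library belongs to the block comparisons with H16R or 3x. Leaving them out reached those counts only through what the fit shares, such as the spread. All H16R and 3x libraries stayed in, so this setting cannot show the part of other cells in them.

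The neighbouring genes of the pathway were taken from lists and not picked one by one. Of 40 other replication genes, 9 rose and 16 fell with 3x in the isotype arm, 6 and 21 with H16R, and 6 and 12 with WT IL-2 (medians -0.05, -0.20 and -0.09). The background over all genes was 31.3% higher and 32.3% lower with 3x, 31.3% and 32.8% with H16R, and 26.0% and 26.2% with WT IL-2, so the shares lowered with 3x (40.0%) and WT IL-2 (30.0%) were near it and that with H16R (52.5%) was above it. Under block with 3x, 19 rose and 7 fell (median 0.10), against 34.7% and 38.3% of all genes. Samhd1, a dNTP hydrolase, and Dbf4, the activator of the kinase that fires origins, rose most with 3x in the isotype arm (0.70 ± 0.06 (adjusted p = 3.46e-11) and 0.47 ± 0.06 (adjusted p = 2.59e-07)), and Timeless, the partner of Tipin, and Mcm8 fell most (-0.65 ± 0.08 (adjusted p = 4.09e-08) and -0.56 ± 0.15 (adjusted p = 0.00280)). Of 10 E2F and RB family genes outside the 52, 4 rose and 3 fell with isotype 3x, near the background. E2f7, the other atypical repressor, rose (1.14 ± 0.15 (adjusted p = 2.00e-07)), as did Rbl2 (0.21 ± 0.06 (adjusted p = 0.00355)), and E2f5 and E2f6 fell (-0.74 ± 0.08 (adjusted p = 9.44e-09) and -0.25 ± 0.07 (adjusted p = 0.00420)). Of 6 genes for cyclin A, CDK2 and inhibitors of cyclin-dependent kinases, 4 rose and none fell, led by the CDK4/6 inhibitor Cdkn2c (1.75 ± 0.11 (adjusted p = 6.76e-13)) and by Ccna2, the cyclin of S phase (1.30 ± 0.15 (adjusted p = 4.73e-08)). Among the mitotic genes Cenpf and Birc5 rose most (1.62 ± 0.16 (adjusted p = 2.42e-09) and 1.49 ± 0.17 (adjusted p = 2.82e-08)). All 20 mitotic genes rose with 3x under block (median 1.63), and 14 of them responded more to 3x under block than with isotype, as did 5 for H16R and none for WT IL-2. Of all genes tested, 20.3%, 10.6% and 11.7% had a higher response under block to 3x, H16R and WT IL-2.

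In Tcons, the arms were fitted together with the antibody as an additive term, so that each value against PBS is an average over both arms. WT IL-2 raised 22 of 52 and lowered none (median 0.39), where 14.8% of all genes tested were higher and 12.4% lower. H16R raised 11 and lowered 1 (median 0.32), where 16.2% of all genes tested were higher and 14.9% lower. With 3x none rose and 1 fell (median 0.04), where 4.73% of all genes tested were higher and 5.18% lower. For 3x this average joins arms that lay on opposite sides of their PBS libraries: the 52 genes summed to 2260 and 2234 CPM with isotype PBS and 2080 and 1873 with isotype 3x, and to 2407 and 2447 with block PBS and 2868 and 2847 with block 3x. Both isotype 3x libraries were below both PBS libraries of their arm and both block 3x libraries above theirs, and 3x against PBS within each arm was not tested. The gene that fell with H16R and with 3x was Rfc1 (-0.17 ± 0.06 (adjusted p = 0.0422) and -0.18 ± 0.06 (adjusted p = 0.0816)). Rrm2 rose most with WT IL-2, with 36.4 and 31.6 CPM in isotype PBS, 95.5 and 38.6 in isotype WT IL-2, 37.3 and 39.2 in block PBS and 93.2 and 73.4 in block WT IL-2 (1.05 ± 0.26 (adjusted p = 0.0198)). The isotype WT IL-2 replicates were far apart, the first above all PBS libraries and the second close to them, and the block pair was above them. At an adjusted p under 0.05 the counts for WT IL-2 and 3x, and for the block over all treatments described next, were 10, 0 and 7. A library outside a comparison, such as isotype WT IL-2 for H16R against PBS, acts only through what the fit shares, such as the spread. Leaving out single libraries moved these counts. That for WT IL-2 was 5 without isotype WT IL-2 replicate 1, 48 without isotype WT IL-2 replicate 2, 6 without MHC II block PBS replicate 1, 9 without MHC II block PBS replicate 2 and was 7 without MHC II block WT IL-2 replicate 1. That for H16R was 27 without isotype WT IL-2 replicate 1, 31 without isotype WT IL-2 replicate 2, 5 without isotype H16R replicate 1, 6 without isotype H16R replicate 2 or MHC II block PBS replicate 1, 19 without isotype 3x replicate 2 and 7 without MHC II block PBS replicate 2. The single call for 3x was lost without any 1 of 7 libraries, namely isotype PBS replicate 1, isotype H16R replicate 1, isotype 3x replicate 2, both MHC II block PBS libraries, MHC II block WT IL-2 replicate 2 and MHC II block 3x replicate 2, which left 0 called. Plasma cell and erythroid markers moved in the same libraries: all 3 plasma cell and all 5 erythroid markers rose with WT IL-2, the erythroid sum being 264 and 22.2 CPM in isotype WT IL-2 replicates 1 and 2, 12.9 to 17.1 in isotype PBS and 44.1 to 159 in block WT IL-2. No myeloid marker and 1 of 2 CD8 T cell markers passed with WT IL-2, but within the block arm the myeloid sums were 24.8 to 27.3 CPM with PBS and 294 to 475 with WT IL-2, and the CD8 T cell sums 6.76 to 7.37 and 25.3 to 73.1. Of the NK cell markers, 2 of 3 rose with each of WT IL-2 and H16R. With H16R all 3 plasma cell and all 5 erythroid markers rose as well. The plasma cell sums were 840 to 1209 and 687 to 1043 CPM with isotype and block PBS and 1607 to 1800 and 1629 to 1665 with H16R, and the erythroid sums were 12.9 to 17.1 and 12.9 to 21.0 with PBS and 67.2 to 79.7 and 36.4 to 60.2 with H16R, without overlap. The B cell sums with PBS, WT IL-2 and H16R were 782 to 860, 183 to 300 and 134 to 182 CPM with isotype. Under block they were 118 to 128, 228 to 282 and 128 to 243 CPM. The myeloid sums with PBS and H16R were 86.9 to 94.6 and 20.9 to 21.7 CPM with isotype, and 24.8 to 27.3 and 93.5 to 108 under block. Their part was not tested.

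Over all treatments the block raised 24 of 52 genes in Tcons and lowered none (median 0.28), where 13.8% of all genes tested were higher and 15.1% lower, and the count was 43 without isotype WT IL-2 replicate 1, 13 without isotype WT IL-2 replicate 2, 6 without isotype 3x replicate 1 or MHC II block 3x replicate 1 or 2, 5 without isotype 3x replicate 2 and 10 without MHC II block WT IL-2 replicate 1. Over the same libraries 4 of 5 myeloid markers were higher under block and 5 of 6 B cell markers and 2 of 5 Treg markers lower. The myeloid sums with isotype and block were 86.9 to 94.6 and 24.8 to 27.3 CPM with PBS, 35.7 to 53.3 and 294 to 475 with WT IL-2 and 20.9 to 21.7 and 93.5 to 108 with H16R. A fit with separate contrasts for each treatment, added after the data were seen, gave the most calls in the 3x mice: 45 rose and none fell (median 0.74), where 20.6% of all genes tested were higher and 18.5% lower. With PBS 2 rose, Mcm6 and Rpa1 (0.32 ± 0.09 (adjusted p = 0.0406) and 0.19 ± 0.05 (adjusted p = 0.0408)), where 1.98% of all genes tested were higher and 8.21% lower. Mcm6 was at 158 and 156 CPM with isotype and 200 and 193 with block. With WT IL-2 none was called, where 6.39% of all genes tested were higher and 4.44% lower, and 0 had an unadjusted p under 0.05. With H16R none was called, where 3.46% of all genes tested were higher and 0.726% lower, and 1 had an unadjusted p under 0.05. DESeq2 called 0 with WT IL-2 and 1 with H16R. Cdc6 in 3x mice was at 8.65 and 6.12 CPM with isotype and 22.2 and 20.6 with block (1.54 ± 0.40 (adjusted p = 0.0172)), Mcm10 at 7.78 and 5.63 and 20.4 and 21.5 CPM (1.65 ± 0.33 (adjusted p = 0.00583)), and Orc1 at 2.09 and 1.33 and 5.23 and 5.30 CPM (1.62 ± 0.42 (adjusted p = 0.0160)). In each of these pairs both block libraries exceeded both isotype libraries. The interaction for 3x, which also takes up the difference between the PBS arms, had 8 genes with a higher response under block, 1, Rpa1, with a lower one, and a median of 0.60, where 10.6% of all genes tested were higher and 7.66% lower. Its count of 9 was 19 with total counts, 18 with limma on log2(FPKM + 0.1), 17 without the CPM filter, 21 with DESeq2 and 17 with the number in the labels as a block. Gins1 and Tk1 were among the higher (1.33 ± 0.36 (adjusted p = 0.0339) and 1.40 ± 0.41 (adjusted p = 0.0471)).

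For the 3x comparison and interaction, the isotype WT IL-2 libraries are outside and act only through what the fit shares. These Tcon counts, too, moved when single libraries were left out. That for 3x was 17 without isotype 3x replicate 2 and 27 without MHC II block 3x replicate 1. That for the interaction was 3 without isotype PBS replicate 1 or MHC II block PBS replicate 1 or MHC II block 3x replicate 2, 5 without isotype PBS replicate 2, 44 without isotype WT IL-2 replicate 1 or 2, 2 without isotype 3x replicate 2 and 4 without MHC II block PBS replicate 2 or MHC II block 3x replicate 1. That for PBS was 0 without isotype PBS replicate 1 or 2 or MHC II block PBS replicate 1 or 2 and 5 without isotype WT IL-2 replicate 1 or 2. With WT IL-2 the count of 0 became 47 without isotype WT IL-2 replicate 1. With H16R the count of 0 became 1 without isotype PBS replicate 1 or 2 or isotype 3x replicate 1 or 2 or MHC II block WT IL-2 replicate 1 or 2 and 2 without isotype WT IL-2 replicate 1 or 2. The 3x Tcon libraries of the arms also differed in other markers: all 5 myeloid markers were higher under block (26.7 to 43.3 CPM with isotype and 141 to 145 with block), as were all 3 plasma cell markers (323 to 429 and 760 to 1133), 1 of 5 erythroid markers (8.79 to 12.7 and 34.5 to 52.9), and all 6 B cell markers were lower (317 to 395 and 103 to 139). Their part was not tested.

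Tregs and Tcons of the same mice were compared within each mouse (mouse as a block), pooling the arms, so that a mouse left out takes both its libraries with it. In PBS mice they differed little: 4 of 52 genes were higher and 8 lower in Tregs (median -0.07), where 24.5% of all genes tested were higher and 25.9% lower. Pole2 was the most different over both arms (-1.04 ± 0.11 (adjusted p = 8.81e-07)). It was at 5.99, 4.57, 5.58 and 6.40 CPM in isotype PBS Tregs and 10.2 and 11.4 in isotype PBS Tcons. Under block its means were 5.47 and 11.6 CPM. The Treg values and means given for single genes here also cover mice without a Tcon library, which were not in the test. E2f8 and Ccne1 were also lower in Tregs (-0.77 ± 0.18 (adjusted p = 0.00218) and -0.57 ± 0.17 (adjusted p = 0.0124)), and Tk1 and E2f2 were among the higher (0.52 ± 0.15 (adjusted p = 0.0125) and 0.19 ± 0.05 (adjusted p = 0.00739)). With WT IL-2 Tregs were lower for 43 genes and higher for 1, E2f2 (median -0.47), where 32.0% of all genes tested were higher and 31.5% lower. In isotype WT IL-2 mouse 2, whose Tcon library held 1419 CPM of Treg markers, the 52 genes summed to 2283 CPM in Tregs and 2152 in Tcons, against 2493 and 3347 in mouse 1 of that group, so its Tregs were the higher. With H16R they were lower for 42 and higher for 3, E2f2, Mcm6 and Rpa1 (median -0.46), where 36.4% of all genes tested were higher and 34.1% lower. With 3x they were higher for 12 and lower for 10 (median 0.07), where 36.7% of all genes tested were higher and 34.4% lower. By arm, in isotype 3x mice 1 and 2 the 52 genes summed to 2637 and 2128 CPM in Tregs and 2080 and 1873 in Tcons, and in block 3x mice 1 and 2 to 2823 and 2517 in Tregs and 2868 and 2847 in Tcons. Tregs were thus above their own Tcons in both isotype mice and below them in both block mice, and the arms were not tested apart here. Cdc6 with H16R was lower in Tregs over both arms (-1.08 ± 0.22 (adjusted p = 0.000402)). With isotype it was at 8.72, 8.28, 7.25 and 7.25 CPM in Tregs and 22.5 and 21.1 in Tcons, the Treg libraries all being lower. Under block its means were closer, at 12.2 CPM in Tregs and 21.9 in Tcons. E2f2 with 3x was higher in Tregs over both arms (1.42 ± 0.05 (adjusted p = 7.05e-12)). With isotype it was at 129, 92.8, 108 and 113 CPM in Tregs and 45.3 and 37.8 in Tcons. Under block its means were 162 and 58.0 CPM. The call for Rpa1 with H16R (0.09 ± 0.04 (adjusted p = 0.0691)) did not keep its sign under other scalings (-0.02 with total counts and -0.01 with either limma fit on FPKM).

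The difference between the cell types in their response to IL-2 was tested directly. For H16R, 27 genes responded less in Tregs than in Tcons and 2 more (median difference -0.39), where 21.8% of all genes tested were higher and 18.8% lower, and the count of 29 was 19 without isotype PBS mouse replicate 1. For WT IL-2, 18 responded less and 1 more (median -0.45), where 7.26% of all genes tested were higher and 4.94% lower, and the count of 19 was 3 without isotype PBS mouse replicate 1 or MHC II block WT IL-2 mouse replicate 2, 4 without isotype PBS mouse replicate 2, 1 without isotype WT IL-2 mouse replicate 1, 42 without isotype WT IL-2 mouse replicate 2, 7 without MHC II block PBS mouse replicate 1, 10 without MHC II block WT IL-2 mouse replicate 1 and 12 without MHC II block H16R mouse replicate 2. It was also 0 without the mouse as a block, 3 at an adjusted p under 0.05, 11 after thinning and 12 without the CPM filter, so this count is not firm. For 3x, 11 responded more in Tregs and 3 less (median 0.14), where 24.3% of all genes tested were higher and 22.2% lower, so both shares of the 52 (21.2% and 5.77%) were below the background. Without the mouse as a block the count of 14 was 9. Rpa1 responded more in Tregs with all 3 molecules (0.27 ± 0.06 (adjusted p = 0.0266), 0.43 ± 0.06 (adjusted p = 0.000319) and 0.37 ± 0.06 (adjusted p = 0.000355)), and Pold1 and Gins4 responded less with all 3, by -0.45 ± 0.11 and -0.35 ± 0.10 for H16R (adjusted p = 0.00740 and 0.0198). For WT IL-2 the call of Rpa1 was lost without isotype WT IL-2 mouse replicate 1. At most 1 of Pold1 and Gins4 then stayed called. E2f2, Rrm2 and E2f8 led the genes that responded more in Tregs to 3x (1.22 ± 0.07 (adjusted p = 8.90e-08), 0.98 ± 0.20 (adjusted p = 0.00152) and 0.95 ± 0.24 (adjusted p = 0.00720)). Beside the comparisons with WT IL-2 and H16R, all 5 erythroid markers were lower in Tregs than in Tcons, as were 2 and 3 of 3 plasma cell markers, 4 and 3 of 5 myeloid markers, 4 and 6 of 6 B cell markers, 2 and 1 of 2 CD8 T cell markers and all 3 NK cell markers. The NK cell sum with isotype H16R, for example, was 7.47 to 11.8 CPM in Tregs and 109 to 119 in Tcons, and the B cell sum 26.6 to 34.7 and 134 to 182. Marker sums differed with PBS and 3x too. The B cell sum was 103 to 567 CPM in Tregs and 782 to 860 in Tcons with isotype PBS, and 24.4 to 31.9 and 317 to 395 with isotype 3x. The plasma cell sum with isotype PBS went the other way, at 1518 to 1830 CPM in Tregs and 840 to 1209 in Tcons. The part of these cells was not tested.

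**Figure D5:**
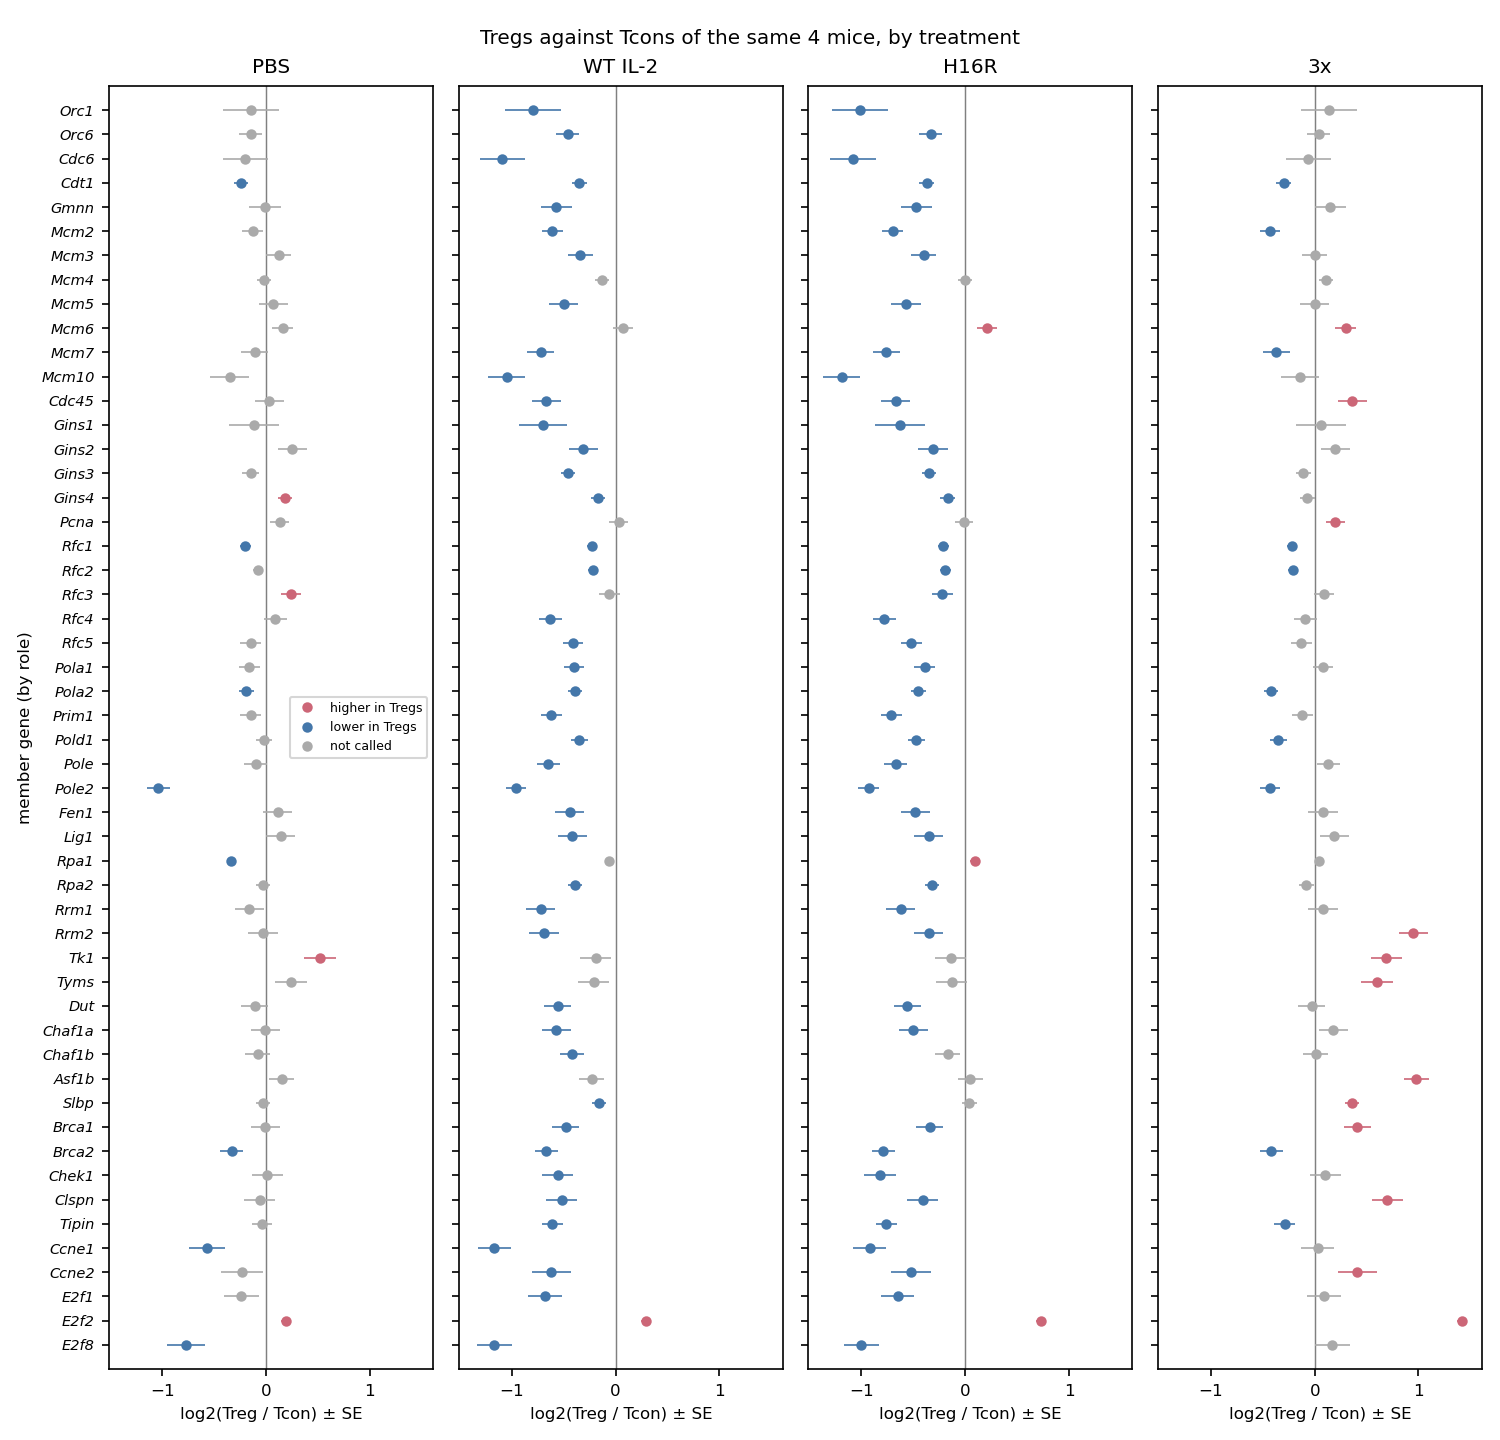
Log2 ratio of Tregs to Tcons of the same 4 mice (2 per antibody arm), with SE, for each of the 52 genes (rows, by role) under each treatment (panels); red points are higher and blue points lower in Tregs at an adjusted p under 0.1, and grey points did not pass. Blue fills the WT IL-2 and H16R panels (43 and 42 genes lower), whereas PBS (8 lower, 4 higher) and 3x (10 lower, 12 higher) scatter about 0.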

How the data were processed

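RNA-seq of 32 Treg and 16 Tcon libraries was used. The authors aligned reads with OSA in Omicsoft Array Suite to mouse B38 and quantified genes with RSEM. They deposited expected counts, which were rounded here, and FPKM values, used here only for levels between genes and for limma. The authors' tables of fold changes, statistics and FDR values from DESeq2 were not used. As in the study, protein-coding genes with CPM over 0.5 in at least 4 libraries were kept. Genes with an empty cell (29 in the Treg fit and 7 in each of the others) were left out, none of them among the 52. edgeR 4.0.16 (R 4.3.3; TMM, quasi-likelihood F test, Benjamini-Hochberg over all 12392, 12526 or 12844 genes tested) was run on all Treg groups, on Tcons with treatment and arm as terms or as 8 groups, and on Tregs and Tcons of the same 16 mice with the mouse as a block. A call is an adjusted p under 0.1. SE is the size of the log2 fold change divided by the root of F. The scripts were tested on simulated data with known changes. DESeq2 1.42.0 and limma 3.58.1 were alternatives.

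The 52 genes, their roles and the other lists were chosen with earlier results of these data known. Given in full are, in each role, the gene highest in FPKM and the one with the largest change for isotype 3x, genes called against the majority of an isotype comparison, and the 5 smallest interaction p per molecule. From the other lists, the 2 largest rises and falls called for isotype 3x are named. Genes outside the 52 named beyond this rule were chosen after their values were seen. The Treg libraries come from 4 mice per group and the Tcon libraries from 2 of these, so p-values measure the spread between mice. A pair of isotype WT IL-2 Treg libraries shares a mouse label. They were counted as 2 mice, which the data cannot show: their counts differed by more than counting noise (chi-square of 29.8 per gene, against 6.34 to 29.1 for the other pairs of that group and at least 3.87 for any pair). Libraries of Tregs and Tcons were paired by the mouse in the labels. Scaling by total counts moved the median of all genes by less than 0.1 (log2) in every Treg comparison. Library totals of 18.28 to 51.95 M counts set the counting error. Alternatives were other scalings, filters, tools, thresholds and pseudocounts, thinning, blocks and leaving out libraries. Promoters (RefSeq) were searched for motifs on both strands.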

Additional observations from a re-analysis of the deposited data

Results flagged for a closer look

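In groups of 4 Treg libraries, a library was singled out where its gap to the nearest other exceeded Dixon's 95% critical value, which 15 of the 328 sets of values examined met (31 genes and 10 sums in 8 groups). Chance flags about 1 in 20. Treg MHC II block H16R replicate 2 held Mcm6 at 215 CPM (below the other 3, 249 to 254), Rfc2 at 61.3 CPM (below the other 3, 69.7 to 69.9) and the sum over clamp and clamp loader at 341 CPM (below the other 3, 378 to 382). Treg isotype WT IL-2 replicate 2 held Pold1 at 55.1 CPM (below the other 3, 59.2 to 59.8). Treg isotype H16R replicate 4 held Rrm2 at 35.5 CPM (below the other 3, 46.4 to 48.2), Asf1b at 16.0 CPM (below the other 3, 21.3 to 21.9) and Gmnn at 12.0 CPM (below the other 3, 13.4 to 13.6). Treg MHC II block 3x replicate 4 held Ccne2 at 6.32 CPM (above the other 3, 4.83 to 5.00). Treg isotype PBS replicate 1 held Clspn at 18.7 CPM (above the other 3, 14.2 to 14.7), Ccne1 at 8.85 CPM (above the other 3, 6.12 to 6.30), the sum over chromatin assembly and histone mRNA at 133 CPM (above the other 3, 126 to 127) and the sum over G1/S regulators at 94.7 CPM (above the other 3, 74.6 to 78.0). Treg MHC II block H16R replicate 3 held Clspn at 26.0 CPM (above the other 3, 21.2 to 21.6). Treg isotype WT IL-2 replicate 3b held Orc1 at 4.34 CPM (above the other 3, 3.33 to 3.50). Treg MHC II block PBS replicate 4 held Rfc3 at 15.5 CPM (above the other 3, 13.0 to 13.2). Isotype PBS replicate 1, high in 4 of these, had a summed B cell marker level of 567 CPM against 103 to 132 CPM in the other 3, and the part of those cells in these values was not tested.

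Differences in response between groups were tested directly in 7 comparisons, given here as the genes called among the 52 with the shares of all genes called higher and lower. Between the antibody arms in Tregs, the response differed for 3 genes under WT IL-2 (11.7% and 7.98% of all genes, so below the background), 28 under H16R (10.6% and 8.47%) and 40 under 3x (20.3% and 18.7%). In Tcons it differed for 9 under 3x (10.6% and 7.66%), a count that ran from 2 to 44 when a library was left out. Between Tregs and Tcons it differed for 19 genes under WT IL-2 (7.26% and 4.94%), with 1 to 42 when a mouse was left out, for 29 under H16R (21.8% and 18.8%), with 19 to 31, and for 14 under 3x (24.3% and 22.2%), which is below the background.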

How the results depend on the processing

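The counts of genes called among the 52 were recomputed under each alternative, and those that moved by more than 1.5 times follow, each as the count under the alternative. Requiring also a log2 fold change of 1 or more in size gave 0 for Treg isotype: WT IL-2 vs PBS, Treg isotype: H16R vs PBS, Treg block: WT IL-2 vs PBS, Treg PBS block vs isotype, Treg WT IL-2 block vs isotype, Treg H16R block vs isotype, Treg 3x block vs isotype, Treg isotype: H16R vs WT IL-2, Treg isotype: 3x vs WT IL-2, Treg isotype: 3x vs H16R, Treg block: H16R vs WT IL-2, Treg block: 3x vs H16R, Treg interaction WT IL-2, Treg interaction H16R, Treg interaction 3x, Tcon: H16R vs PBS, Tcon: 3x vs PBS, Tcon block vs isotype (all treatments), Tcon PBS block vs isotype, Treg vs Tcon response to WT IL-2 and Treg vs Tcon response to H16R, 1 for Treg isotype: 3x vs PBS, Treg block: H16R vs PBS, Tcon: WT IL-2 vs PBS, Treg vs Tcon: PBS, Treg vs Tcon: 3x and Treg vs Tcon response to 3x, 6 for Treg block: 3x vs PBS, 4 for Treg block: 3x vs WT IL-2, Tcon interaction 3x and Treg vs Tcon: WT IL-2, 13 for Tcon 3x block vs isotype, 3 for Treg vs Tcon: H16R. Scaling by total counts gave 16 for Treg block: WT IL-2 vs PBS, 0 for Tcon: 3x vs PBS, 19 for Tcon interaction 3x. Limma on log2(FPKM + 1) gave 16 for Treg block: WT IL-2 vs PBS, 0 for Tcon: 3x vs PBS. Limma on log2(FPKM + 0.1) gave 17 for Treg block: WT IL-2 vs PBS, 0 for Tcon: 3x vs PBS, 18 for Tcon interaction 3x. Fitting only the groups compared gave 14 for Treg block: WT IL-2 vs PBS, 27 for Treg isotype: H16R vs WT IL-2. Without the CPM filter gave 1 for Treg PBS block vs isotype, Tcon PBS block vs isotype and Tcon H16R block vs isotype, 7 for Treg isotype: 3x vs WT IL-2, 0 for Tcon: 3x vs PBS, 17 for Tcon interaction 3x, 12 for Treg vs Tcon response to WT IL-2. An adjusted p under 0.05 gave 1 for Treg PBS block vs isotype, 4 for Treg WT IL-2 block vs isotype, 6 for Treg isotype: 3x vs WT IL-2, 12 for Treg isotype: 3x vs H16R, 10 for Tcon: WT IL-2 vs PBS, 0 for Tcon: 3x vs PBS, 7 for Tcon block vs isotype (all treatments), 3 for Treg vs Tcon response to WT IL-2, 9 for Treg vs Tcon response to 3x. Thinning to the smallest library gave 0 for Treg PBS block vs isotype, 11 for Treg vs Tcon response to WT IL-2. Keeping all biotypes gave 7 for Treg isotype: 3x vs WT IL-2. DESeq2 gave 1 for Tcon H16R block vs isotype, 21 for Tcon interaction 3x. The replicate block (the number in the labels) gave 1 for Tcon H16R block vs isotype, 17 for Tcon interaction 3x. The fit with no replicate block (mouse left out) gave 0 for Treg vs Tcon response to WT IL-2, 9 for Treg vs Tcon response to 3x.

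Leaving out 1 library, or 1 mouse, at a time gave these lowest and highest counts: 13 to 19 for Treg isotype: WT IL-2 vs PBS, 29 to 38 for Treg isotype: H16R vs PBS, 25 to 33 for Treg isotype: 3x vs PBS, 7 to 14 for Treg block: WT IL-2 vs PBS, 24 to 30 for Treg block: H16R vs PBS, 40 to 42 for Treg block: 3x vs PBS, 1 to 4 for Treg PBS block vs isotype, 5 to 10 for Treg WT IL-2 block vs isotype, 33 to 42 for Treg H16R block vs isotype, 41 to 48 for Treg 3x block vs isotype, 6 to 21 for Treg isotype: H16R vs WT IL-2, 7 to 13 for Treg isotype: 3x vs WT IL-2, 4 to 26 for Treg isotype: 3x vs H16R, 16 to 33 for Treg block: H16R vs WT IL-2, 42 to 46 for Treg block: 3x vs WT IL-2, 22 to 38 for Treg block: 3x vs H16R, 2 to 5 for Treg interaction WT IL-2, 18 to 35 for Treg interaction H16R, 32 to 44 for Treg interaction 3x, 5 to 48 for Tcon: WT IL-2 vs PBS, 5 to 31 for Tcon: H16R vs PBS, 0 to 1 for Tcon: 3x vs PBS, 5 to 43 for Tcon block vs isotype (all treatments), 0 to 5 for Tcon PBS block vs isotype, 0 to 47 for Tcon WT IL-2 block vs isotype, 0 to 2 for Tcon H16R block vs isotype, 17 to 50 for Tcon 3x block vs isotype, 2 to 44 for Tcon interaction 3x, 8 to 13 for Treg vs Tcon: PBS, 39 to 48 for Treg vs Tcon: WT IL-2, 37 to 45 for Treg vs Tcon: H16R, 19 to 23 for Treg vs Tcon: 3x, 1 to 42 for Treg vs Tcon response to WT IL-2, 19 to 31 for Treg vs Tcon response to H16R, 10 to 16 for Treg vs Tcon response to 3x.

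Of the 776 called results of single genes, 767 stayed called in the same direction with DESeq2 size factors, 771 with the DESeq2 Wald test, 753 with total counts, 732 with limma on log2(FPKM + 1), 629 at an adjusted p under 0.05 and 666 after thinning. Rpa1 in Tregs against Tcons with H16R changed sign, to -0.02 with total counts and -0.01 with either limma fit, and the cause was not tested. With the replicate block, 585 of the Treg and Tcon results of single genes stayed called and 6 did not. Same-numbered libraries did not deviate together (correlations from -0.49 to 0.68, median 0.03, over 112 pairs of groups); libraries with other numbers had a median of -0.01, so the numbers were not taken to pair mice. On the given strand alone, an E2F motif was in 14.6% of the 48 promoters (1.20% of all) and CCAAT in 33.3% (21.1%). Thinning, which sets every library to the depth of the smallest, cost 110 of the 776 calls. With only 2 mice per Tcon group, leaving out at least 1 of the libraries moved each of the 9 Tcon counts by more than 1.5 times. With both Treg libraries high in other-cell markers left out, 441 of the called Treg results stayed called and 35 did not. These include comparisons that hold neither library. That alternative and the Tcon fit of 8 groups were added after seeing the data.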
